A study of Mus musculus with 4 samples.

Results

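Integrins are the receptors by which cells hold on to the matrix around them, and the members described here are the integrin subunit genes and a set of genes for proteins that join integrins to the cell's interior. A gene was a member when its name on the array was that of an integrin alpha or beta subunit, or one of 15 named partners: the talins Tln1 and Tln2, the kindlins Fermt1, Fermt2 and Fermt3, Ilk, Lims1, Lims2, Parva, Parvb, Vcl, Pxn, Ptk2, Zyx and Bcar1. This gave 41 genes (18 alpha subunits, 8 beta subunits and 15 partners) of 50090 gene names, read by 71 probes of 61307. Genes entered by name, with no threshold on a measured value, although the set was proposed with earlier results of these data known.

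RNA came from C3H10T1/2, an established mouse embryo fibroblast line that is used in assays of chemical transformation. The control group was this line cultured for 6 weeks, with no agent named in its labels. The other group was the same line given 3MC (3-methylcholanthrene, a polycyclic hydrocarbon carcinogen) at 2.5 µg/ml for 2 days. It was then kept for 4 days in normal medium, given the phorbol ester and tumour promoter TPA at 100 ng/ml 2 times a week for 2 weeks, and cultured for 4 weeks without agents. This group is called 3MC+TPA below. The protocol describes foci in exposed flasks and names no step that separated them from the surrounding monolayer, so each exposed RNA may hold both. Each group had 2 arrays, each read in 1 colour (Cy3). The labels are silent on whether they hold separate cultures, and the p-values below reflect the scatter of these arrays alone, which may be technical.

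The arrays were similar in quality. Between 32125 and 32512 non-control spots per array were flagged by the scanner software as well above background, and none was saturated. The 75th percentile of the signal lay at 543.1 and 595.2 on the control arrays and at 701.3 and 747.2 on the 3MC+TPA arrays. Levels below are log2 of the signal minus the log2 of that percentile, so 0 is the 75th percentile of an array and a difference of 1 is a 2-fold difference. All 7 fibroblast marker genes examined, among them Col1a1, Col1a2 and Vim, were measured on every array. Of these, Pdgfra (log2 change -1.47, limma adjusted p = 0.0204) and Pdgfrb (-1.02, 0.0216) were called lower in 3MC+TPA and Thy1 (2.98, 0.0465) higher. Each of the 3 calls ended without either 3MC+TPA array, and that on Pdgfrb also without either control array. All 4 arrays lay on 1 slide and were scanned together, in positions ordered by group, so that effects of position and of exposure cannot be told apart.

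An integrin is a pair of an alpha and a beta subunit that spans the membrane. The pair decides the ligand: laminins, collagens, proteins with an RGD peptide such as fibronectin and vitronectin, or receptors on other cells. Inside the cell, talins and kindlins bind the beta tail and switch the integrin to its binding form. The complex of ILK, a PINCH protein (Lims1, Lims2) and a parvin, together with vinculin (Vcl), zyxin and paxillin, ties it to actin, and focal adhesion kinase (Ptk2) and p130Cas (Bcar1) pass the signal on.

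In 3MC+TPA cells the genes for 3 laminin-binding alpha subunits (Itga3, Itga6 and Itga7) and for their partner beta1 rose, by 2.49-fold to 9.89-fold. Focal adhesion kinase and p130Cas rose less, by 1.88-fold and 1.77-fold, and Itgae by 1.93-fold. The leukocyte subunit Itgb2 and the talin gene Tln2 fell, by 2.09-fold and 2.73-fold. The other subunits and partners did not pass the test at the main settings. In RNA of whole cultures, fewer cells of a type and less RNA per cell cannot be told apart.

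Of the 41 members, 31 could be tested, and all of these were well above background on all 4 arrays. A gene was called when its limma p-value, adjusted by Benjamini-Hochberg over all 24981 features tested, was under 0.05. By this rule 7 members (22.6% of those tested) were higher in 3MC+TPA, where 7.47% of all features tested were, and 2 (6.45%) were lower, where 8.35% of all features were. In either direction 9 members (29%) were called, against 15.8% of all features. Of these, 6 also differed by at least 2-fold, which 11.1% of all features did. The arrays of the groups did not overlap for 23 members (74.2%), where 63.9% of all features did not overlap, so this count lies near the background. Only Itga7 and Tln2 were called in every fit that left out 1 array and also without the filter on dim probes. Of the called members 77.8% were higher, beside 47.2% of all called features. When the arrays were not scaled to each other, 91.7% of called members were higher, beside 79.1% of all called features.

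The median log2 change was 0.32 over the members tested and -0.01 over all features tested, whose middle 50% lay between -0.34 and 0.33. Of the members, 22 lay above 0 and 9 below. Among 26 integrin subunits, 18 were tested, 5 were called higher and 1 lower, with a median log2 change of 0.33. Among the 15 partners, 13 were tested, 2 were called higher and 1 lower, with a median of 0.32.

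**Figure D1:**
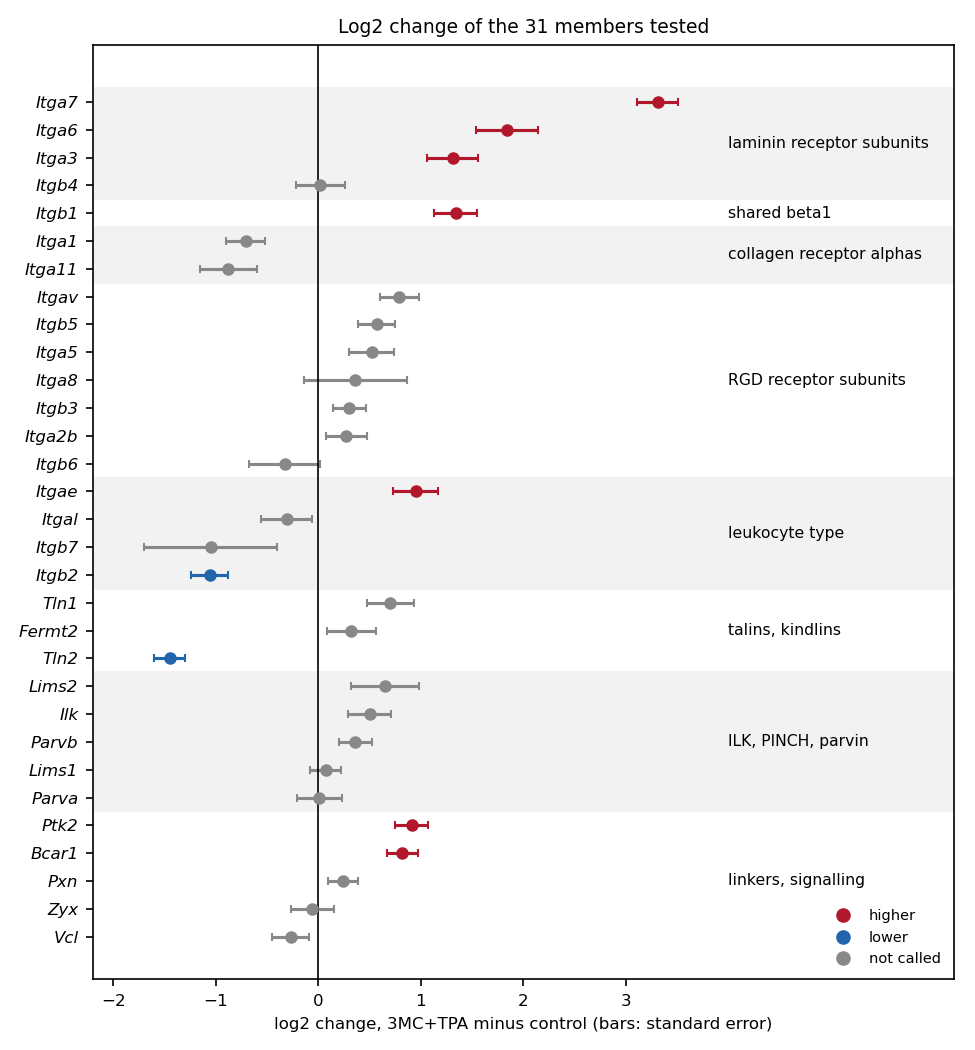
Log2 change between 3MC+TPA and control (horizontal axis, bars are standard errors of the limma fit, n = 2 arrays a group) for the 31 members tested, grouped by role. Red points are members called higher, blue points members called lower and grey points members that did not pass; Itga7 at 3.31 and Tln2 at -1.45 mark the ends.

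The laminin receptor genes Itga7 and Itga6 had the largest log2 changes of the 31 members tested. Together with Itga3 they encode the alpha subunits grouped here as laminin receptors, which pair with beta1 to bind laminin, the main adhesive protein of basement membranes. Each of these 3 was higher on both 3MC+TPA arrays than on both control arrays. Itgb4, whose product pairs with alpha6 in the hemidesmosomes of epithelia, did not pass the test. The median log2 change of the 4 laminin receptor genes was 1.58.

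Itga7, best known as the laminin receptor of muscle, had log2 levels of -3.99 and -4.40 on the control arrays and of -0.81 and -0.98 on the 3MC+TPA arrays. Both control arrays were close to the dimmest signal counted as well above background, -4.72 and -4.78 there, and both 3MC+TPA arrays were far above it. The group means were -4.20 ± 0.29 and -0.89 ± 0.12 (SD, n = 2), a log2 change of 3.31 ± 0.20 (standard error) and a 9.89-fold rise (limma adjusted p = 0.00139). The call held when any single array was left out, with log2 changes of 3.1 to 3.51. Under another background correction (normexp) and the other alternatives the change ranged from 1.94 to 3.65. The gene has 1 probe on the array, so the probe is shown here because the whole result rests on its 60 bases, as the files give them.
Itga7 probe: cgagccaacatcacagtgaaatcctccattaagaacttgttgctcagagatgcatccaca

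No skeletal muscle marker was called. Of 7 such genes, 5 (Myod1, Myog, Myf5, Ckm and Myh3) were not well above background on any array. The other 2 were tested and did not pass: Des changed by 0.59 (limma adjusted p = 0.0643) and Acta1 by -0.12 (0.801). The summed signal of the 7 genes, in units of the 75th percentile, was 8.93 and 5.68 on the control arrays and 6.22 and 7.27 on the 3MC+TPA arrays. Most of it came from Acta1, by far the brightest of them, so the sum says little about the others. Of 5 smooth muscle genes, all were tested: Tagln and Smtn were higher and Cnn1 was lower. The summed signal was 397 and 259 in controls and 290 and 330 in 3MC+TPA, most of it from Acta2, which was not called (-0.11). The part of these cell types in the Itga7 result was not tested.

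Itga6 encodes alpha6, which pairs with beta1 or beta4. Log2 levels were -1.15 and -0.36 on the control arrays and 0.98 and 1.20 on the 3MC+TPA arrays. The groups did not overlap, although the control arrays differed from each other by more than the 3MC+TPA arrays did. The log2 change was 1.84 ± 0.30, a 3.59-fold rise (limma adjusted p = 0.0189). The call ended without 3MC+TPA array 1 (log2 change 1.95, limma adjusted p = 0.08) and without 3MC+TPA array 2 (1.73, limma adjusted p = 0.102). In these fits the lone array of a group is assumed to vary like the other group.

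Itga3 encodes alpha3, a receptor for several laminins. Its brightest probe had log2 levels of -0.95 and -1.17 in controls and of -0.05 and 0.56 in 3MC+TPA. All 4 values kept the groups apart, with the wider spread among the 3MC+TPA arrays. The log2 change was 1.31 ± 0.25, a 2.49-fold rise (limma adjusted p = 0.0287). The call ended without control array 1 (limma adjusted p = 0.0521), control array 2 (0.0919) or 3MC+TPA array 2 (0.0914), with log2 changes of 1.42, 1.20 and 1.01.

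Itga3 has 3 probes, and they did not give 1 answer on size. A second probe, with log2 levels of -1.93 and -2.13 in controls and -0.75 and -0.45 in 3MC+TPA, was also called higher, with a log2 change of 1.43. The dimmest probe, with -2.53 and -2.92 in controls and -2.10 and -2.29 in 3MC+TPA, changed by 0.53 and was not called. All 3 had both 3MC+TPA arrays above both control arrays. Where in the transcripts these probes lie was not analysed here.

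Itgb4 had log2 levels of -1.28 and -0.79 in controls and of -1.18 and -0.84 in 3MC+TPA. The groups overlapped, and the log2 change was 0.02 ± 0.24 (limma adjusted p = 0.963). Its 2 probes share 50 bases and so do not measure the transcript independently. Among 6 epithelial markers, Cdh1 and Krt18 were not well above background on any array, and none of the 3 tested was called. Epcam was well above background on 3MC+TPA array 1 only and was not tested. Its log2 levels were -6.96 and -7.03 in controls and -4.39 and -7.07 in 3MC+TPA. The summed signal of the 6 was 0.268 and 0.300 in controls and 0.276 and 0.305 in 3MC+TPA.

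Itgb1 encodes beta1, the partner of most alpha subunits in fibroblasts, including the laminin and collagen receptors. Its log2 levels were 3.47 and 2.97 on the control arrays and 4.57 and 4.55 on the 3MC+TPA arrays. Both 3MC+TPA arrays were higher than both control arrays and nearly equal to each other. The group means were 3.22 ± 0.36 and 4.56 ± 0.01 (SD, n = 2), a log2 change of 1.34 ± 0.21 and a 2.53-fold rise (limma adjusted p = 0.0187). A second probe for Itgb1, with 0.29 and -0.20 in controls and 1.14 and 1.12 in 3MC+TPA, was called higher too, with a log2 change of 1.09. The call on the brightest probe ended without 3MC+TPA array 1 (limma adjusted p = 0.0903) and without 3MC+TPA array 2 (0.0931), while the log2 change stayed at 1.33 and 1.35. The second probe is shown because it reads this shared subunit by other bases, although from the same RNA on the same arrays.
Itgb1 second probe: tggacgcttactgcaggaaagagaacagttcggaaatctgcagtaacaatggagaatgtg

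The promoter of Itgb1 is shown because beta1 is the shared partner of the alpha subunits of Itga3, Itga6 and Itga7, genes that were called higher. RefSeq's promoter table for mouse (build GRCm38.p6) held a start region for 28 of the 41 members, including 3 of the 7 called higher (Itga3, Itgb1 and Bcar1) and neither of those called lower. The 250 bases before the Itgb1 start lie at chr8:128685404-128685653, plus strand. Capitals mark a match to the TEAD motif GGAATG, which begins 7 bases before the start.
Itgb1 promoter: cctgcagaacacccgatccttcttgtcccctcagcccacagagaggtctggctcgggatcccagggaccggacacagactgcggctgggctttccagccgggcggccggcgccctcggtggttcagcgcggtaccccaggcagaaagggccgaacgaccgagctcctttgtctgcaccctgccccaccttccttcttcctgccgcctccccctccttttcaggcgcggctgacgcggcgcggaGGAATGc

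Such a match is a description of the letters only. In windows of 250 bases before to 50 after the start, GGAATG stood on either strand in 14.7% of all 32851 promoters and in those of 3 members: Itgb1, Vcl and Itga10. The AP-1 motif TGANTCA stood in 7.81% of all promoters and in those of 4 members: Itga3, Itga9, Itgax and Zyx. The SRF CArG box stood in 1.63% and in those of 3 members: Fermt2, Itgb6 and Vcl. Matches of different motifs were counted separately, whether or not they overlapped. The percentages count single promoters, while members were counted as genes, 28 of them with 34 promoters, so the 2 are unlike measures.

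**Figure D2:**
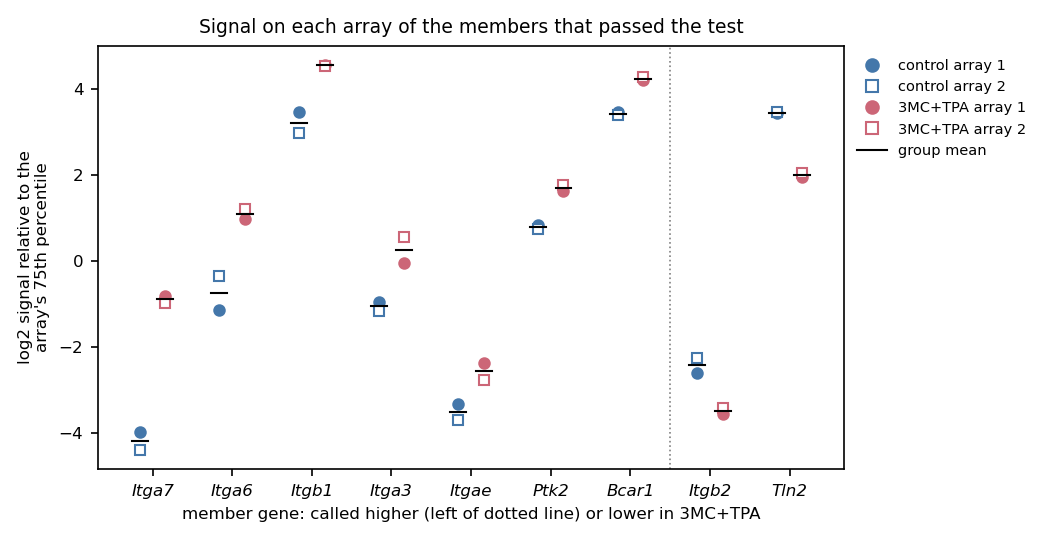
Log2 level as defined above (vertical axis) on each of the 4 arrays for the 9 members that passed the test; filled circles and open squares are arrays 1 and 2 of a group, and lines are group means. In each of the 9 genes both 3MC+TPA arrays lie on 1 side of both control arrays; levels of different genes come from different probes and cannot be set against each other.

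Of the collagen receptor alpha subunits, Itga1 and Itga11, both found in fibroblasts, were measured, and neither passed the test at the main settings. Itga2 was not well above background on any array, and Itga10 only on 1 array of each group. The median of the 2 measured was -0.80.

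Itga1 had log2 levels of 0.10 and -0.26 in controls and of -0.76 and -0.82 in 3MC+TPA. Both 3MC+TPA arrays were lower, and the change of -0.71 ± 0.19 missed the threshold (limma adjusted p = 0.064). It was called lower with normexp background correction (limma adjusted p = 0.0251), with only genes well above background on all 4 arrays (0.0455) and with a trended, robust variance (0.0375). Of its 3 probes, another with -1.21 and -1.55 in controls and -2.19 and -2.54 in 3MC+TPA was called lower, with a log2 change of -0.98, and the dimmest, with -2.86 and -3.32 against -3.39 and -3.50, was not. Itga11 had 2.30 and 1.69 in controls and 1.35 and 0.88 in 3MC+TPA, a log2 change of -0.88 ± 0.28 (limma adjusted p = 0.0985). Its groups did not overlap either, and it was called lower with a trended, robust variance (limma adjusted p = 0.0472).

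None of the RGD receptor subunits was called at the main settings, of 7 tested out of 8. These receptors bind fibronectin, vitronectin and osteopontin, and alpha-v pairs with several beta subunits. Closest to the threshold was Itgav, with log2 levels of 2.10 and 1.93 in controls and of 2.98 and 2.63 in 3MC+TPA. The 3MC+TPA arrays were both higher, by a log2 change of 0.79 ± 0.19 (limma adjusted p = 0.053). Itgb5, a partner of alpha-v, had 5.69 and 5.42 in controls and 6.23 and 6.02 in 3MC+TPA, a change of 0.57 ± 0.18 (limma adjusted p = 0.0975), again with no overlap. Itgav was called higher under 5 of 15 alternatives and Itgb5 under 3, normexp background correction among them (limma adjusted p = 0.0235 and 0.0384).

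The other RGD receptor subunits lay nearer to 0. The fibronectin receptor subunit Itga5 changed by 0.52 ± 0.22, with 1.66 and 1.65 in controls and 1.92 and 2.44 in 3MC+TPA. Itgb3 changed by 0.30, Itga2b by 0.27 and Itgb6 by -0.33, with limma adjusted p-values of 0.263, 0.407 and 0.558. Itga8 had 1.29 and -0.15 in controls and 1.19 and 0.67 in 3MC+TPA, so the control arrays were farther apart than the groups. Itgb8 was well above background on control array 1 only.

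Itga2b and Itgb3 together form the fibrinogen receptor of platelets. Of 4 platelet and megakaryocyte markers, Gp1ba and Gp9 were not well above background on any array, while Pf4 and Ppbp were lower in 3MC+TPA. Their summed signal was 1.74 and 1.28 in controls and 0.212 and 0.232 in 3MC+TPA. Neither integrin gene was called, and the part of such cells in their values was not tested.

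The leukocyte integrins gave 1 call in each direction. Itgae, whose product pairs with beta7 on lymphocytes of epithelia, had log2 levels of -3.34 and -3.71 in controls and of -2.37 and -2.78 in 3MC+TPA. The groups did not overlap, and the log2 change was 0.95 ± 0.22, a 1.93-fold rise (limma adjusted p = 0.0499). A second probe for Itgae was not well above background on any array. With every probe as its own feature, the brightest probe was not called (limma adjusted p = 0.0503). The call on the gene is thus at the threshold and was made under 5 of 15 alternatives. It ended when any single array was left out (limma adjusted p = 0.0569 to 0.17) and with normexp background correction, where the log2 change was 0.36.

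Itgb2 encodes the beta subunit common to several leukocyte integrins. On the log2 scale it lay at -2.60 and -2.27 in controls and -3.57 and -3.43 in 3MC+TPA. Both 3MC+TPA arrays were lower, by a log2 change of -1.06 ± 0.18, which is 2.09-fold (limma adjusted p = 0.0225). The call ended without control array 2 (-0.90, limma adjusted p = 0.0717), 3MC+TPA array 1 (-0.99, limma adjusted p = 0.105) or 3MC+TPA array 2 (-1.13, limma adjusted p = 0.0901), and also with no scaling between arrays (-0.71).

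Of the alpha subunits that pair with beta2, Itgam, Itgax and Itgad were not well above background on any array. Itgal was measured and changed by -0.31 ± 0.25, with -3.40 and -3.14 in controls and -3.87 and -3.30 in 3MC+TPA. Those groups overlapped. The 2 subunits known for leukocytes and other migrating cells, Itga4 and Itga9, were also not well above background on any array.

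Itgb7 rested on 1 array. Its log2 levels were -2.59 and -0.56 in controls and -2.61 and -2.64 in 3MC+TPA, so control array 2 stood apart from the other 3 arrays. The log2 change of -1.05 ± 0.65 was not called (limma adjusted p = 0.318). It was called lower without control array 1 (-2.07, limma adjusted p = 0.00633) and was -0.04 without control array 2.

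Leukocyte markers were dim on these arrays. Of 9 such genes, 4 (Ptprc, which encodes CD45, Cd52, Laptm5 and Tyrobp) were not well above background on any array. Of the 4 tested, Coro1a was called lower in 3MC+TPA. The others were not called: Cd68 changed by 1.07, Csf1r by -1.66 and Fcer1g by -0.19. Cd53 was well above background on control array 2 only and was not tested. Its log2 levels were -4.73 and -3.45 in controls and -7.1 and -7.11 in 3MC+TPA. Both 3MC+TPA arrays were thus below both control arrays for Cd53, but at background. The summed signal of all 9 was 0.637 and 0.780 in controls and 0.495 and 0.581 in 3MC+TPA. That sum was lower on both 3MC+TPA arrays than on both control arrays. Without Coro1a, left out because it was the marker called, the sum was 0.337 and 0.458 in controls and 0.351 and 0.385 in 3MC+TPA. The groups overlapped in this second sum, but the choice of the marker left out rests on its outcome. The overlap therefore says nothing about the share of such cells. Both sums add Cd68, with a change above 0, to markers with changes below 0. The part of such cells in the Itgb2 result was not tested.

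The activators of integrins differed among themselves. Tln1 and Tln2 encode talins, which bind the beta tail and link it to actin. Tln2 had log2 levels of 3.44 and 3.47 in controls and of 1.96 and 2.04 in 3MC+TPA. The arrays of each group were nearly equal and the groups were far apart. The group means were 3.45 ± 0.02 and 2.00 ± 0.06 (SD, n = 2), a log2 change of -1.45 ± 0.15, which is 2.73-fold lower (limma adjusted p = 0.00562). The call held without any single array, with log2 changes of -1.49 to -1.41. The second tested probe of Tln2 changed by -1.41 and was called as well, while 2 further probes were too dim to test.

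Tln1, the talin gene found in most cells, had log2 levels of 4.09 and 3.91 in controls and of 4.43 and 4.96 in 3MC+TPA. It differed from Tln2 in sign: both 3MC+TPA arrays were higher, by 0.70 ± 0.23, but this was not called (limma adjusted p = 0.103), although it was under 3 of 15 alternatives, such as normexp background correction (limma adjusted p = 0.0424). All 3 of its probes had changes above 0. The kindlin gene Fermt2 changed by 0.32 ± 0.24 with overlapping groups. The epithelial kindlin Fermt1 and the blood cell kindlin Fermt3 were not well above background on any array.

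The genes of the ILK, PINCH and parvin complex gave no call at the main settings in 5 tested, with a median log2 change of 0.36. Ilk, a pseudokinase that holds the complex together, had 3.6 and 3.34 in controls and 3.77 and 4.16 in 3MC+TPA, a change of 0.50 ± 0.21 (limma adjusted p = 0.165), which was called only without scaling between arrays (limma adjusted p = 0.0406). Lims1 changed by 0.07 and Parvb by 0.36. Lims2 had 2.80 and 1.87 in controls and 3.01 and 2.96 in 3MC+TPA, a change of 0.65 ± 0.33, so control array 2 was the low one. It was called higher without control array 1 (1.12, limma adjusted p = 0.0335) and changed by 0.19 without control array 2.

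Parva was the only one of 16 members with several tested probes whose probes differed in sign. The brightest had log2 levels of 2.71 and 2.21 in controls and of 2.40 and 2.55 in 3MC+TPA, a change of 0.01. The other had 2.12 and 2.70 in controls and 1.55 and 1.90 in 3MC+TPA, a change of -0.69. Neither probe was called, and no direction is given for this gene.

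Among the linkers and signalling proteins of the adhesion, Ptk2 and Bcar1 were called higher. Ptk2 encodes focal adhesion kinase, a tyrosine kinase that is recruited when integrins cluster. It had log2 levels of 0.84 and 0.74 in controls and 1.63 and 1.77 in 3MC+TPA. The groups lay apart with little spread, and the log2 change was 0.91 ± 0.16, a 1.88-fold rise (limma adjusted p = 0.022). The second probe, with -0.10 and -0.03 in controls and 0.76 and 0.41 in 3MC+TPA, changed by 0.65 and was not called. It is shown as the reading that kept the direction but not the call.
Ptk2 second probe: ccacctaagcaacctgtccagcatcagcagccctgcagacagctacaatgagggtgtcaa

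Bcar1 encodes p130Cas, a scaffold that focal adhesion kinase and Src phosphorylate. It lay at log2 levels of 3.46 and 3.39 in controls and 4.21 and 4.28 in 3MC+TPA. These groups also lay apart, with a log2 change of 0.82 ± 0.15, a 1.77-fold rise (limma adjusted p = 0.0257). The calls on both genes ended when any single array was left out, with log2 changes of 0.84 to 0.98 for Ptk2 (limma adjusted p = 0.0515 to 0.107) and of 0.79 to 0.86 for Bcar1 (limma adjusted p = 0.0631 to 0.116).

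The structural linkers Vcl, Pxn and Zyx were not called. Paxillin, the scaffold to which focal adhesion kinase binds, changed by 0.24, vinculin by -0.27 and zyxin by -0.06, with limma adjusted p-values of 0.329, 0.35 and 0.877. Zyx levels were 6.48 and 6.63 in controls and 6.27 and 6.73 in 3MC+TPA, and the groups overlapped.

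The members were also read by all of their probes, each probe as a feature of its own. Of the 71 member probes, 50 were tested, 8 were called higher and 4 lower, where 15.5% of all probes were called in either direction. In 15 of the 16 members with more than 1 tested probe, the probes shared a sign. Among the called members, Itga6, Itga7, Itgb2 and Bcar1 have 1 probe each on the array, so no second probe could be set beside those calls. The widest ranges between probes of 1 gene, on the log2 scale, were 0.90 for Itga3, 0.70 for Parva and 0.62 for Itga1.

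**Figure D3:**
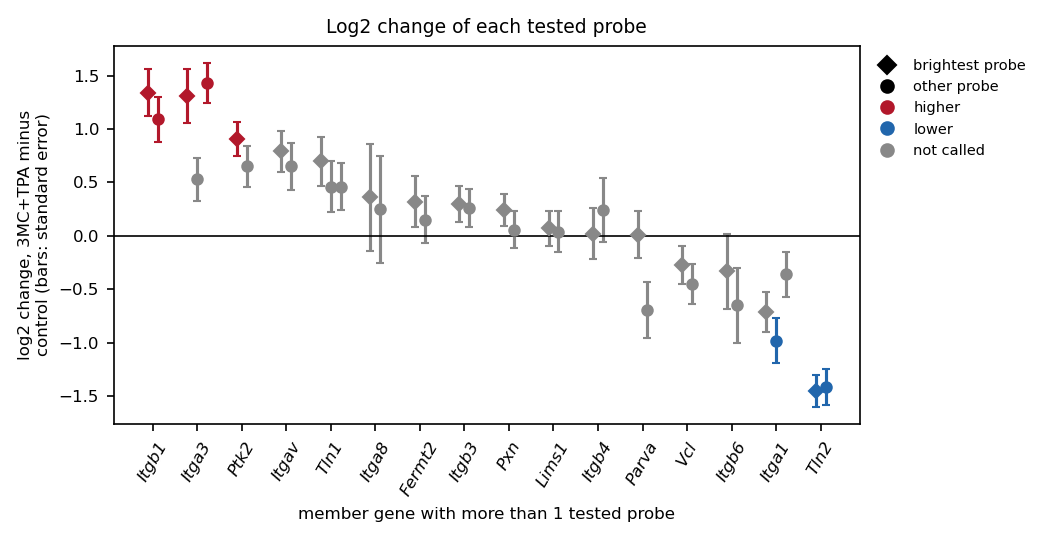
Log2 change between 3MC+TPA and control (vertical axis, bars are standard errors of a fit in which each probe is a feature) for each tested probe of the 16 members with more than 1. Diamonds are the brightest probe of a gene and circles its other probes, coloured by call; only Parva has probes on both sides of 0.

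The ligands of these receptors, the linkers, the signalling proteins and the regulators around them were read from 4 further lists. Of 112 listed genes, 108 were on the array and 94 were tested; 20 (21.3%) were called higher, against 7.47% of all features, and 5 (5.32%) lower, against 8.35%, with a median log2 change of 0.25. For each list called genes with the largest changes are named.

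Of 21 ligand genes tested, 7 (33.3%) were called higher and 2 (9.52%) lower, beside the same 7.47% and 8.35% of all features. Spp1 encodes osteopontin, a ligand of RGD receptors. Its log2 levels were 7.52 and 8.42 in controls and 1.53 and 0.67 in 3MC+TPA, a change of -6.87 ± 0.42, which is 117-fold lower (limma adjusted p = 0.00139). Fibronectin (Fn1), by contrast, changed by -0.06 with overlapping groups.

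The laminin chains moved in both directions. Lama5, the alpha chain of laminin-511, had 2.03 and 0.90 in controls and 4.63 and 4.53 in 3MC+TPA, a change of 3.11 ± 0.38, which is 8.66-fold (limma adjusted p = 0.00928). Both 3MC+TPA arrays were higher than both control arrays, and the call ended without either 3MC+TPA array (highest limma adjusted p = 0.0613). The tenascin gene Tnc, another matrix ligand, changed by 1.39 ± 0.19, with 2 of 2 probes called.

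Further laminin chains are given because of the receptor result and were chosen after their values were seen. Lama4, an alpha chain of mesenchymal and vascular laminins, had 3.83 and 3.85 in controls and 2.53 and 2.75 in 3MC+TPA, a change of -1.19 ± 0.16 (limma adjusted p = 0.0118), with 3 of 3 probes called lower. Lama1 changed by 1.13 and Lamc1, the gamma chain of most laminins, by 0.80, and both were called higher. The beta chain genes Lamb1-1 and Lamb2 changed by 0.46 and 0.47 and were not called. Lama2, Lama3, Lamb3 and Lamc3 were not well above background on both arrays of either group.

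**Figure D4:**
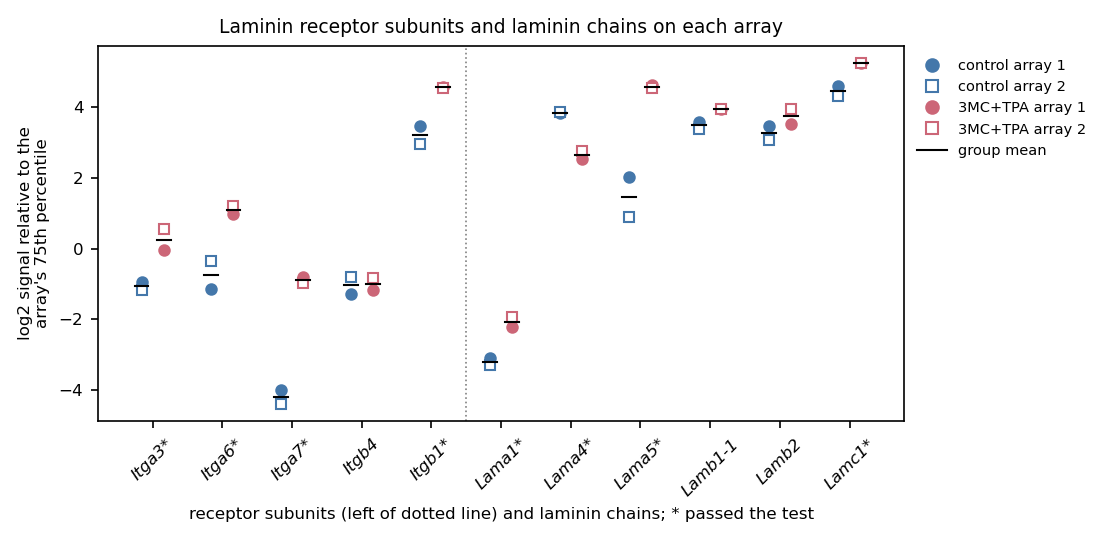
Log2 level as defined above (vertical axis) on each of the 4 arrays, for 5 laminin receptor subunit genes (left of the dotted line) and 6 laminin chain genes; lines are group means and stars mark genes that passed the test. Itga3, Itga6, Itga7, Itgb1, Lama1, Lama5 and Lamc1 lie higher in 3MC+TPA and Lama4 lies lower.

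Of 26 further actin linkers tested, 4 (15.4%) were called higher and 1 (3.85%) lower. Tns4, a tensin that binds beta tails and lacks the actin-binding region of other tensins, changed by -1.83 ± 0.27, from -0.13 and 0.46 in controls to -1.46 and -1.87. Tes, which encodes the LIM protein testin, changed by 1.79 ± 0.16, from -1.63 and -1.57 to 0.10 and 0.28. The filamin gene Flnc changed by 1.62, with 4 of 4 probes called. Tns4 thus moved against Tes and Flnc.

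Of 28 signalling genes tested, 5 (17.9%) were called higher and 1 (3.57%) lower. Fyn, a kinase of the Src family that acts with focal adhesion kinase, had 1.15 and 0.25 in controls and 3.04 and 3.06 in 3MC+TPA, a change of 2.35 ± 0.32 (limma adjusted p = 0.0116), with 4 of 4 probes called. Ptk2b, which encodes the related kinase Pyk2, had -2.87 and -3.16 in controls and -1.0 and -1.10 in 3MC+TPA, a change of 1.97 ± 0.17 (limma adjusted p = 0.00378). Both kinases were thus higher on both 3MC+TPA arrays. Elmo1, which acts with Dock proteins on Rac, was not well above background in controls and was at least 3.66-fold higher in 3MC+TPA, taking the dimmest such signal as the bound. Pak1, a kinase that Rac activates, changed by 1.06.

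Of 20 regulators tested, 4 (20%) were called higher and 1 (5%) lower. Itgbl1, a secreted protein that resembles the beta subunits, had -1.47 and -2.44 in controls and 0.34 and 0.26 in 3MC+TPA, a change of 2.26 ± 0.34. The tetraspanin Cd9, a membrane partner of the laminin-binding integrins, changed by 1.35 ± 0.18, and Kank1, which binds talin, by 1.23 ± 0.16, with 3 of 3 probes called. Cd47, an integrin-associated membrane protein, changed by -0.86 ± 0.17. Without either 3MC+TPA array, the calls on Tnc, Lama4, Tns4, Flnc, Fyn, Pak1, Itgbl1, Kank1 and Cd47, and on Lama1 and Lamc1, ended, with limma adjusted p-values of up to 0.141. Leaving out control array 2 also ended the calls on Cd47, Lama1 and Lamc1, and leaving out control array 1 that on Lamc1. That on Cd9 ended without 3MC+TPA array 1 only (limma adjusted p = 0.0611), and those on Spp1, Tes, Ptk2b and Elmo1 held without any single array.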

How the data were processed

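RNA of 2 control and 2 3MC+TPA samples was read on 4 Agilent arrays of a custom mouse design. The intensity values come from Agilent's Feature Extraction software, version 10.7.3.1, per the file headers. The processed signal of a spot is its brightness after background subtraction; the mean and background intensity are unprocessed. The deposited table holds log2 values by the authors. It equals the main values within 0.01 for at least 61302 of 61307 probes once a constant of 0.003 to 0.015 per array is taken off, so its scale and direction are those of the scanner files, and its genes are not centred. Its column medians are -4.29 and -4.31 (control) and -4.39 and -4.35 (3MC+TPA).

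For the main values, the 75th percentile of an array's non-control spots was taken off on the log2 scale. Control spots (1319 per array) and spots flagged as outliers (20 to 68) were left out. A gene name was read by its probe with the highest mean signal, and tested when that probe was well above background on both arrays of at least 1 group. Groups were compared with limma 3.58.1 in R 4.3.3 (2-sided, no covariates), with Benjamini-Hochberg adjustment and a threshold of 0.05. The fit was also run on simulated data with normal scatter drawn from the fitted spread. That run cannot show whether the arrays of a group are separate cultures. An at-least fold sets the brighter group's mean against the dimmest signal well above background on each array of the other. Members got values on all arrays when called or when their probes differed; of each further list, the 4 called genes with the largest changes were to be named, of which some are not reported here. Members and lists were chosen with earlier results of these data known. Gene coordinates were not used because the array's grid and the gene table are of different builds. RefSeq promoters were matched by symbol.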

Additional observations from a re-analysis of the deposited data

How the results depend on the processing

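No member changed direction while called under any alternative run. The 9 calls depend on the pooled spread of only 2 arrays a group, and array number limits the precision. Without scaling between arrays, which moved the median of all features to 0.34, 6723 features were called. Of these 79.1% were higher, against 47.2% at the main settings, so the shift was one of all features. Among them were 11 members higher and 1 lower (91.7% of called members higher, against 77.8%). A further 34 pathway genes were higher and 3 lower (91.9%, against 80%). Without the filter on dim probes, 907 features, 1 member higher, 1 lower, 4 further genes higher and 1 lower were called. With a trended, robust variance 4 members were lower, Itga1 and Itga11 being those gained. By the methods' t-test with Benjamini-Hochberg adjustment 23 features were called, with 0 members in either direction, 1 further gene higher and 0 lower; unadjusted, at 0.05, it called 5 members higher and 2 lower. Leaving out 1 array gave 1183 to 3328 features, 1 to 4 members higher, 1 to 3 lower, 4 to 15 further genes higher and 1 to 4 lower; the lowest count of members higher came without 3MC+TPA array 2. The labels number the arrays of each group 1 and 2, but the numbers did not pair them (correlation of deviations 0.003): with the replicate number as a block, 3589 features, 7 members higher and 3 lower (Itga11 gained, limma adjusted p = 0.0395), and 15 further genes higher and 4 lower were called.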
